A study of Mus musculus with 19 samples.

Results

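The genes of the major histocompatibility complex (MHC) and of antigen presentation were read from whole-kidney bulk RNA-seq of the unilateral ureteral obstruction (UUO) model, in which the left ureter is tied and the kidney behind it becomes inflamed and fibrotic. The group holds the protein-coding rows of the count table whose name starts with H2-, the mouse MHC, together with B2m, Tap1, Tap2, Tapbp, Tapbpl, Ciita, Cd74, Nlrc5, Erap1 and Cd1d1. This rule found 44 of the 54532 genes in the table, and no measured value entered it. Of the 44 members, 34 carry an H2 name, 32 belong to class I with its loading machinery, 11 to class II, and H2-Ke6, which encodes a dehydrogenase and no MHC chain, to neither. On GRCm38, 37 members lie on chromosome 17.

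All 19 kidneys were the obstructed left kidneys of male mice of 8 to 9 weeks on the C57BL/6J background, taken 12 days after surgery and perfused with heparin, and unobstructed kidneys were not analysed here. CD5L is a secreted macrophage-derived protein that travels in blood with IgM, and CD5L KO mice lack it. Each mouse was injected into the peritoneum every day with 0.5 mg of recombinant CD5L (rCD5L) or with PBS of the same volume. The 4 groups were WT given PBS (n = 5), WT given rCD5L (n = 5), CD5L KO given PBS (n = 4) and CD5L KO given rCD5L (n = 5). The labels call the kidneys of a group biological replicates, and each p-value below measures the spread between these kidneys. In a whole kidney, a lower level of a gene can come from fewer cells of the type that makes it or from less RNA in each cell, and the 2 cannot be told apart.

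MHC class I molecules are pairs of a heavy chain (H2-K1 and H2-D1 in C57BL/6 mice) and beta-2 microglobulin (B2m), present on nearly all cells, and they show peptides from the cytosol to CD8 T cells. The peptides are pumped into the endoplasmic reticulum by Tap1 and Tap2, trimmed by Erap1 and loaded with the help of tapasin (Tapbp), and Nlrc5 is the transcriptional coactivator of these genes. MHC class II molecules (H2-A and H2-E) are made mostly by dendritic cells, B cells and macrophages, guided by the invariant chain Cd74 and loaded by H2-DM under restraint of H2-O, and show peptides from endosomes to CD4 T cells. Ciita is the coactivator on which their transcription depends, and interferon gamma raises both classes through Ciita and Nlrc5.

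Both classes share promoter elements, and the windows of 7 members are printed here. The later results compare Ciita with H2-Aa and H2-Eb1, and Nlrc5 with H2-K1, H2-D1 and B2m. H2-Q6 and H2-Q7 are not compared with a coactivator. Each sequence is the 250 bases before the gene's RefSeq start on GRCm38.p6, written 5′ to 3′ on the gene's strand, with motif matches in capitals. The heavy chain genes H2-K1 (chr17:34000334-34000583, minus strand), H2-D1 (chr17:35262844-35263093, plus strand), H2-Q6 (chr17:35424600-35424849, plus strand) and H2-Q7 (chr17:35438905-35439154, plus strand) come first. The class II chains H2-Aa (chr17:34287824-34288073, minus strand) and H2-Eb1 (chr17:34305617-34305866, plus strand) and the light chain B2m (chr2:122147437-122147686, plus strand) follow.
H2-K1: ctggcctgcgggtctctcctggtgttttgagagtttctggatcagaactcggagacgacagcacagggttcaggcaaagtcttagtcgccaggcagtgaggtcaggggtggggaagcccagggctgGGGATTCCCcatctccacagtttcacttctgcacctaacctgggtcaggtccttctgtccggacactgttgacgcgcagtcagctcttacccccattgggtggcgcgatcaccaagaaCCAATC
H2-D1: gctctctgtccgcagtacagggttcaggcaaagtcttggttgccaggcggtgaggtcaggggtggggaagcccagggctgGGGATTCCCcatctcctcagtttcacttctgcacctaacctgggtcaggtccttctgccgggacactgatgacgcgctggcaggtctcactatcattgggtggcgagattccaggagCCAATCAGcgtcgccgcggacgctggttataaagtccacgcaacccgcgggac
H2-Q6: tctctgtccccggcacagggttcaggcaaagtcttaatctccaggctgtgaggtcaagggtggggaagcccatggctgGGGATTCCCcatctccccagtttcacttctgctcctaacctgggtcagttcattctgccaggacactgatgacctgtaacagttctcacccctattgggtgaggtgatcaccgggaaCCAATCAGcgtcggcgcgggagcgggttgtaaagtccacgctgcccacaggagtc
H2-Q7: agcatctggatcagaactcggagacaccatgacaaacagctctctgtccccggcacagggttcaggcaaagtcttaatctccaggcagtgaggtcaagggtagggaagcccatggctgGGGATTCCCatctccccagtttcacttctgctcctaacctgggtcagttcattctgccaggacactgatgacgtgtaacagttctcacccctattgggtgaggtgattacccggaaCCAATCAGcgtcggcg
H2-Aa: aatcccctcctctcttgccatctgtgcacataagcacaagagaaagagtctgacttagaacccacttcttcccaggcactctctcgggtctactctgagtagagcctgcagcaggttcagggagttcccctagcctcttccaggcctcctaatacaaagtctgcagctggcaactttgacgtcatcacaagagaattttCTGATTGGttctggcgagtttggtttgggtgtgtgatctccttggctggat
H2-Eb1: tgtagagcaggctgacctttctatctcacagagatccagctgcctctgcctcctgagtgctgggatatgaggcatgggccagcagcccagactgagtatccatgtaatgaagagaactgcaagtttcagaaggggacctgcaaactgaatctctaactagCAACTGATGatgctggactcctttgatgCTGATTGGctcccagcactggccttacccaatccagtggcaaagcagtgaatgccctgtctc
B2m: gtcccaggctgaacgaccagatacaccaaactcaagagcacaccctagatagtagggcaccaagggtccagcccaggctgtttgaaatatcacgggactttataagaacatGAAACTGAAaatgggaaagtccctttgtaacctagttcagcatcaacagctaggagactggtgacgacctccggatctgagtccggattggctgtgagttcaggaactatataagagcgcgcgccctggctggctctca

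Windows were found for 35 of the 44 members and were searched on both strands over 300 bases, from 250 before to 50 after the start, with motifs chosen after the windows had been looked at. The inverted CCAAT or Y box, CTGATTGG (capitals CCAATCAG on the other strand), stood in 18 of the 35 member windows and in 4.1% of all 32851 windows. In the printed genes it lay at -53 to -46 from the start in H2-D1, -55 to -48 in H2-Q6, -16 to -9 in H2-Q7, -51 to -44 in H2-Aa and -62 to -55 in H2-Eb1, and in H2-K1 at -6 to 2, across the annotated start. GGGATTCCC, the core of enhancer A, an NF-kB element of class I promoters, was found in 4 member windows (H2-K1, H2-D1, H2-Q6 and H2-Q7) and in 0.353% of all windows. It lay at -124 to -116 in H2-K1, -170 to -162 in H2-D1, -172 to -164 in H2-Q6 and -132 to -124 in H2-Q7. CAACNGATG, from the X box of class II promoters, was found in H2-Eb1 (-90 to -82) and H2-Eb2, 2 of the 35, and in 0.566% of all windows. GAAANNGAA, from the interferon response element, was found in 4 member windows (B2m, at -139 to -131, Erap1, H2-T22 and H2-T23) and in 8.56% of all windows. None of the 4 motifs overlaps another in the printed windows. A match is a description of the letters and not evidence of binding.

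Class II chains and the class I pair were among the most abundant transcripts of the obstructed kidney. FPKM values, which divide by gene length and so allow genes to be compared, put 5 members among the 50 genes of highest mean over the 19 kidneys and 7 among the first 100. Cd74 had the highest mean level, 1325 FPKM at rank 16 of all genes, followed by B2m with 1049 FPKM at rank 19. The class II chains H2-Eb1, H2-Aa and H2-Ab1 followed at 816, 537 and 516 FPKM. The heavy chains H2-K1 and H2-D1 stood at 386 and 314 FPKM. In C57BL/6 mice the H2-E alpha chain gene is a pseudogene, and its row, H2-Ea-ps, had 0 counts in every kidney although its partner H2-Eb1 was the most abundant class II chain after Cd74.

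The loading machinery and the regulators were far below the abundant chains. Tapbp was at a mean of 66.3 FPKM, Tapbpl (a relative of tapasin that edits peptides) and Tap2 at 14.3 FPKM each, Tap1 at 11.1 FPKM and Erap1 at 9.77 FPKM. The class II loading chains H2-DMb1, H2-DMa and H2-DMb2 reached 51.7, 39.3 and 19.3 FPKM, while their inhibitors H2-Oa and H2-Ob reached 2.26 and 1.79 FPKM. Ciita was at 4.24 FPKM and Nlrc5 at 2.56 FPKM. Among the other class I genes H2-T23, the Qa-1 molecule read by NKG2A receptors, was at 51.7 FPKM, H2-Q6 at 38.8 FPKM, H2-Q4 at 31.8 FPKM, H2-T22 at 26.4 FPKM, H2-Q7 at 11.5 FPKM and H2-M3, which shows formylated peptides, at 10.4 FPKM. Cd1d1, which shows lipids to NKT cells, was at 4.0 FPKM.

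At the other end, H2-M10.1, H2-M10.3, H2-M10.4 and H2-M11 had 0 counts in every kidney, which allows up to 3 counts in each library, and 9 members had at most 3 counts in every kidney. Expression was tested in all 4 comparisons of 2 groups for 31 members, 20 of class I and 11 of class II, H2-M5 was tested in 2 of them, and 12 members were too low for any test. Near-identical copies can split or lose reads. Windows of 150 bases that also occur in another gene made up 5.99% of H2-Q6, 5.9% of H2-Q7, 4.71% of H2-DMb1, 4.14% of H2-DMb2 and 1.35% of H2-D1, and 0% of H2-K1. For H2-Ke6, shared with the overlapping Gm20427, the figure was 54.5%, and its counts of 0 to 8 per kidney are uncertain for that reason. Of the 44 members, 15 overlap another gene, among them B2m with Patl2, Tap1 with Psmb9 and Erap1 with Cast, and the strand setting of the counting is not given in the sources used here.

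**Figure D1:**
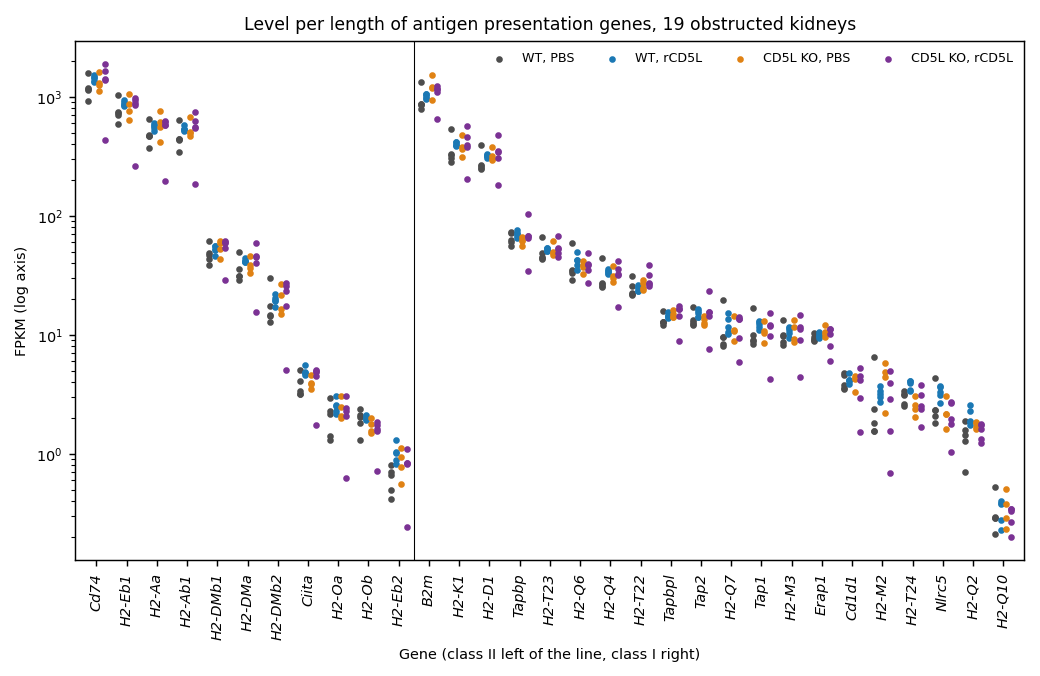
FPKM on a log axis for the 31 members tested in every comparison of 2 groups, one point for each of the 19 kidneys, coloured by group, with class II left and class I right of the line. Cd74 with a mean of 1325 FPKM and B2m with 1049 FPKM stand at the top, and Ciita at 4.24 FPKM and Nlrc5 at 2.56 FPKM lie far below these abundant chains and above the lowest members, such as H2-Ob at 1.79 FPKM.

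Together the members took 0.343% to 1.37% of all counts of a kidney. The libraries held 17917491 to 23847090 counts each, Cd5l had 0 counts in all 9 CD5L KO kidneys and 3 to 15 in the WT kidneys, and markers of macrophages, dendritic cells, B cells, T cells, endothelium and tubules were detected in full. Kidney 4 of the CD5L KO rCD5L group stood apart, with proximal tubule markers summing to 13060 CPM (counts per 1000000 of the TMM-scaled library size, the unit of all per-kidney values below) against 1206 to 2696 CPM in the other kidneys, 10.1% of counts from mitochondrial protein-coding genes, and only 0.343% of counts from members. Kidney 3 of that group and kidney 1 of the CD5L KO PBS group stood apart by the small nuclear RNA Rn7sk, at 106 and 54.6 CPM. Rn7sk was also higher in the CD5L KO PBS group as a whole. It was at 9.78 to 54.6 CPM there and at 2.27 to 5.045 CPM in the WT PBS kidneys, without overlap. The part of this library difference in the comparison of these groups was not tested. Kidney 1 of the WT PBS group held 1.37% of its counts in members, against 0.806% to 0.936% in the other 4 WT PBS kidneys. Results that rest on these kidneys are given with and without them.

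**Figure D2:**
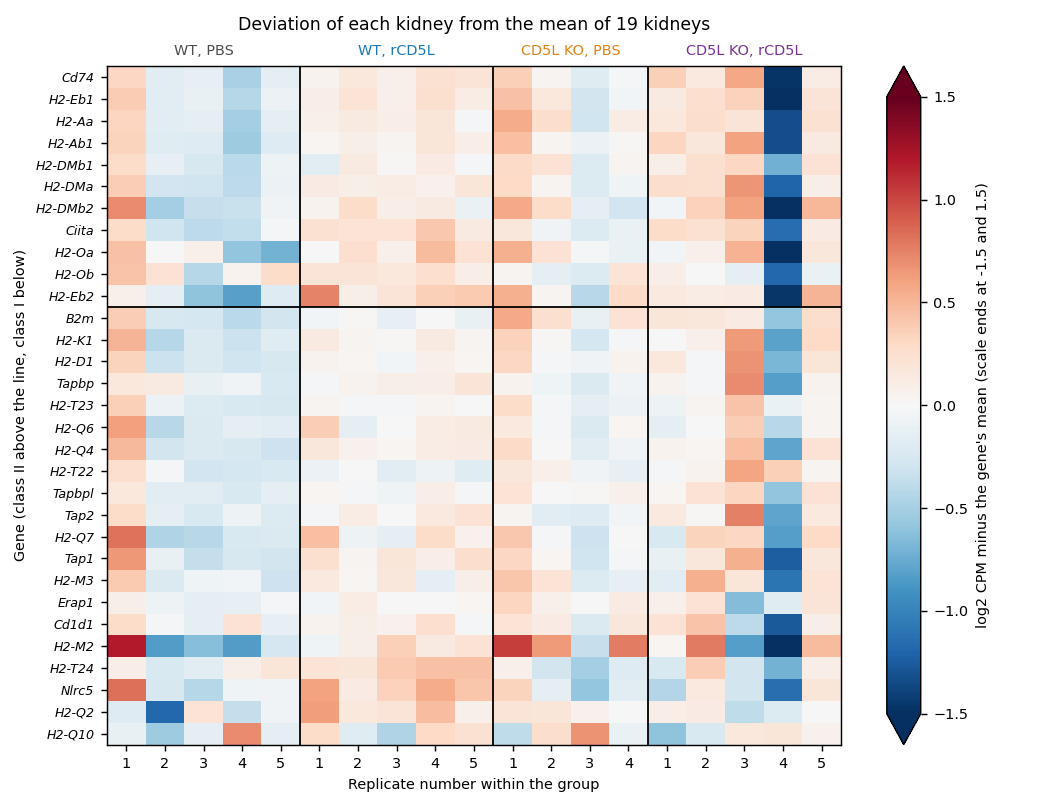
Each of the 31 members tested in every comparison of 2 groups (rows) in each of the 19 kidneys (columns, by group), as its log2 CPM minus the gene's mean over all kidneys. WT PBS kidney 1 is high and CD5L KO rCD5L kidney 4 low across most rows.

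The first comparison, CD5L KO against WT with both given PBS, asks what the lack of CD5L changes in the obstructed kidney. No member passed an adjusted p of 0.05 (edgeR quasi-likelihood test, Benjamini-Hochberg over all genes) among 32 tested, while 10.5% of all 17579 genes did. That count of 1850 genes fell to 1015 without WT PBS kidney 4, 1121 without WT PBS kidney 2, 1038 without CD5L KO PBS kidney 1 and 1215 without CD5L KO PBS kidney 2. Members with an unadjusted p under 0.05 numbered 2, B2m and Erap1, against 26.6% of all genes, and DESeq2 called 0 members with 1 at that unadjusted level, against 14.9% and 26.5% of all genes. Of the 32 fold changes 25 were above 0, against 49.3% of all genes, with a median log2 fold change of 0.10 in class I (21 genes) and 0.17 in class II (11 genes) against -0.0046 over all genes. No member separated the groups without overlap, against 14.1% of all genes. Members tended to vary together between kidneys, as given below. Their signs, here and in the later comparisons, are therefore not independent of one another.

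B2m, the light chain, had the largest log2 fold change of the 7 members among the 100 most abundant genes. In WT PBS kidneys 1 to 5 it was at 1397, 918, 901, 820.0 and 895 CPM, and in CD5L KO PBS kidneys 1 to 4 at 1610.4, 1276, 999.6 and 1262 CPM. Every KO kidney lay above 4 of the 5 WT kidneys, and WT kidney 1 lay inside the KO range. The log2 fold change was 0.38 (SE 0.16, 95% interval 0.03 to 0.72, adjusted p = 0.154, edgeR).

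Erap1, the peptide-trimming aminopeptidase, was at 91.3, 82.0, 78.8, 79.5 and 84.5 CPM in the WT PBS kidneys and at 108, 90.8, 86.1 and 94.1 CPM in the CD5L KO PBS kidneys. The ranges overlapped, with 2 KO kidneys above all WT kidneys. Its log2 fold change was 0.18 (SE 0.07, adjusted p = 0.131, edgeR).

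The heavy chains and the class II genes did not separate. H2-K1 was at 1707, 893, 1029, 963 and 1059.9 CPM in the WT PBS kidneys and at 1527, 1216, 997 and 1172 CPM in the KO PBS kidneys, a log2 fold change of 0.11 (SE 0.18, adjusted p = 0.737, edgeR). H2-Aa, the H2-A alpha chain, was at 1493, 1072, 1076, 839.6 and 1083 CPM in WT and at 1759, 1427, 967 and 1291 CPM in KO kidneys, a log2 fold change of 0.28 (SE 0.17, adjusted p = 0.316, edgeR). In both genes kidney 1 was the highest of its group in WT and in KO mice. Cd74 gave a log2 fold change of 0.16, H2-Ab1 of 0.24, H2-D1 of 0.20 and Ciita of 0.09, and the values of Nlrc5 (-0.19) and H2-Ob (-0.17) were below 0.

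These values turned on kidney 1 of each group. Without WT PBS kidney 1, 4 of 31 members were called, all higher in KO, against 9.94% of all genes: B2m (log2 fold change 0.54, adjusted p = 0.020), H2-D1 (0.34, adjusted p = 0.027), Tapbpl (0.25, adjusted p = 0.034) and H2-M2 (1.25, adjusted p = 0.018), a low-level class I gene named here after its values were seen. WT PBS kidney 1 was the highest of its group in each of the 4, so leaving it out raises their fold changes. Without it the class medians were 0.23 and 0.30. Without CD5L KO PBS kidney 1 they were -0.01 and 0.04, no member was called, and B2m was at 0.25 (adjusted p = 0.373, edgeR) and Cd74 at 0.04. That kidney had the highest summed macrophage level of the 19 kidneys (3337 CPM), the highest B cell (25.0 CPM) and T cell (69.6 CPM) levels of its group and the lowest proximal tubule level of its group (1212 CPM), and their part in the medians was not tested. Leaving out another kidney also moved a median by over 1.5 times: class I was at 0.04 without WT PBS kidney 2 or 5 and at 0.06 without WT PBS kidney 3, and class II at 0.11 without WT PBS kidney 4 and at 0.26 without CD5L KO PBS kidney 3. With an offset for gene length the medians were 0.06 and 0.09, and on unfiltered FPKM class I was at 0.04.

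Against the 10.5% of all genes called in this comparison, 2 of 12 macrophage markers were called, both lower in CD5L KO PBS kidneys, Csf1r (log2 fold change -0.47) and Mertk (-0.39). The summed macrophage level was 2313 to 2999.6 CPM in WT PBS and 2081 to 3337 CPM in KO PBS kidneys, and the summed dendritic cell level, with 0 of 10 markers called, 698 to 899.7 and 849.9 to 1030.2 CPM. The summed B cell level, with 0 of 8 markers called, was 13.5 to 25.3 CPM in WT PBS and 11.8 to 25.0 CPM in KO PBS kidneys. The median log2 fold change was -0.12 over the macrophage, 0.01 over the dendritic cell and -0.10 over the B cell markers. Of 8 endothelial markers 4 were called, all lower, beside the same 10.5%. Their part in the values above was not tested.

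**Figure D3:**
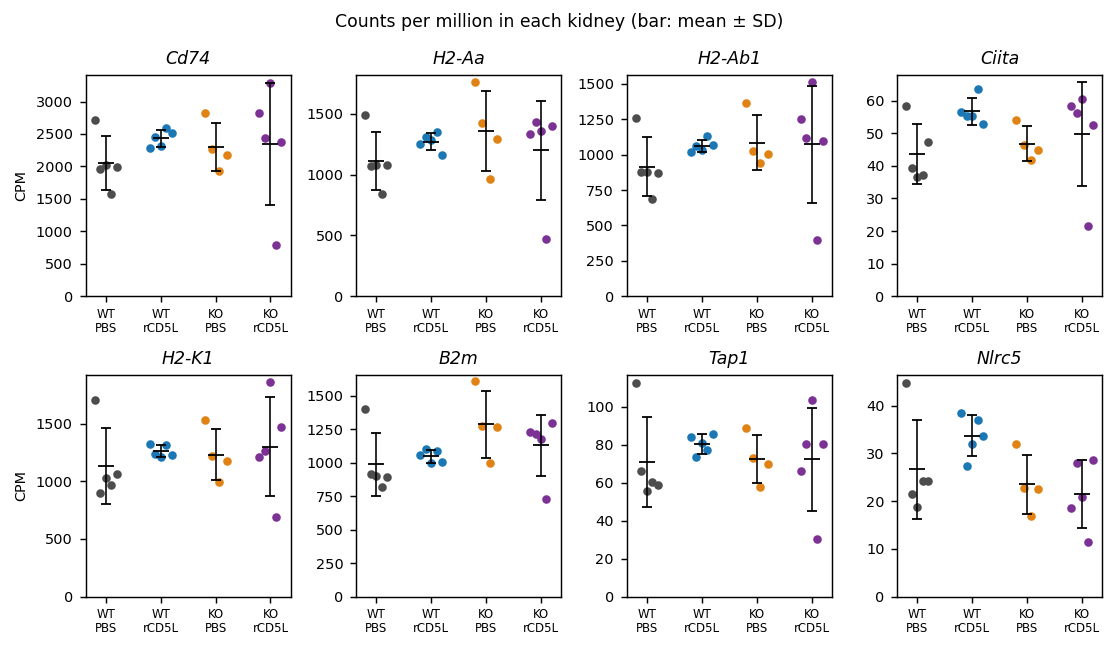
CPM of 8 members in every kidney by group, one panel for each gene, with points for kidneys and black bars for the group mean and SD. In B2m 3 of the 4 CD5L KO PBS kidneys, at 1262 CPM and above, lie well above WT PBS kidneys 2 to 5 (820.0 to 918 CPM). The groups overlap, with WT PBS kidney 1 at 1397 CPM and CD5L KO PBS kidney 3 at 999.6 CPM.

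The second comparison, rCD5L against PBS in WT mice, asks what added CD5L does where the mice have their own. All 32 tested members had a fold change above 0, 21 in class I and 11 in class II, against 51.3% of all genes. The lowest, H2-T22 at 0.0013, was just below 0 with DESeq2 (-0.0042) and with RLE factors (-0.0045). The median log2 fold change was 0.13 in class I and 0.22 in class II, against 0.0046 over all genes. Because members tended to vary together between kidneys, these signs are not separate observations. No member passed the adjusted threshold in edgeR, and neither did any of the 17455 genes (0%). At an unadjusted p under 0.05 there were 5 members, against 16% of all genes: Ciita, Cd74, H2-Eb2, H2-T24 and H2-Q2.

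Ciita, the class II coactivator, was at 58.3, 39.2, 36.7, 37.1 and 47.3 CPM in the WT PBS kidneys and at 56.6, 55.3, 55.3, 63.7 and 52.9 CPM in the WT rCD5L kidneys. All 5 rCD5L kidneys lay above 4 of the PBS kidneys, and PBS kidney 1 lay among the rCD5L kidneys. The log2 fold change was 0.38 (SE 0.11, adjusted p = 0.130, edgeR), and DESeq2 called it (0.38, adjusted p = 0.036), when it called 3.11% of all genes and had 6 members with an unadjusted p under 0.05 (16.2% of all genes).

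Cd74, the invariant chain, was at 2721, 1958, 2022, 1573 and 1994 CPM with PBS and at 2279, 2457, 2320.2, 2587 and 2515 CPM with rCD5L. The rCD5L kidneys lay between PBS kidney 1 and the other PBS kidneys. Its log2 fold change was 0.25 (SE 0.11, adjusted p = 0.266, edgeR). The chains H2-Eb1, H2-Ab1 and H2-Aa gave 0.22, 0.22 and 0.20, and the loading chain H2-DMa gave 0.24.

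The groups were apart in 2 members, both higher with rCD5L, against 1.69% of genes apart in that direction. H2-Eb2, a second beta chain gene named here after its values were seen, was at 2.17, 1.87, 1.32, 1.13 and 1.80 CPM with PBS and at 3.52, 2.20, 2.36, 2.68 and 2.74 CPM with rCD5L (log2 fold change 0.71, SE 0.21, adjusted p = 0.140, edgeR). H2-T24, a class I gene of the T region also named after its values were seen, was at 8.45, 6.70, 6.95, 8.33 and 8.94 CPM with PBS and at 9.09, 8.95, 10.4, 10.7 and 10.7 CPM with rCD5L (0.35, SE 0.11, adjusted p = 0.153, edgeR). In both genes the gap between the groups was narrow, 8.94 against 8.95 CPM in H2-T24.

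In class I, H2-K1 was at 1320.0, 1237, 1211, 1313 and 1230.0 CPM with rCD5L, close together and inside the span of 893 to 1707 CPM with PBS, a log2 fold change of 0.17 (SE 0.14, adjusted p = 0.584, edgeR). Nlrc5 was at 44.8, 21.4, 18.7, 24.2 and 24.3 CPM with PBS and at 38.4, 27.4, 32.0, 37.1 and 33.7 CPM with rCD5L. The rCD5L kidneys lay above 4 of the 5 PBS kidneys in H2-K1 and in Nlrc5. The log2 fold change of Nlrc5 was 0.35 (SE 0.19, adjusted p = 0.389, edgeR), and B2m was at 0.10 (SE 0.12). The share of counts that members took was 1.12% to 1.20% in the WT rCD5L kidneys (SD 0.0354) and 0.806% to 1.37% with PBS (SD 0.222). Without PBS kidney 1 it was 0.806% to 0.936% with PBS (SD 0.0572).

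WT PBS kidney 1 decided the calls. Without it, 7 of 32 members were called, all higher with rCD5L, against 0.222% of all genes (39 of 17607). They were Ciita (log2 fold change 0.51, adjusted p = 0.029), H2-DMa (0.38, adjusted p = 0.029), H2-D1 (0.30, adjusted p = 0.029), H2-K1 (0.36, adjusted p = 0.033), H2-Q4 (0.37, adjusted p = 0.019), Nlrc5 (0.61, adjusted p = 0.039) and Tap1 (0.42, adjusted p = 0.027), while Cd74 (0.37, adjusted p = 0.058) and B2m (0.25, adjusted p = 0.066) were not. The class medians were then 0.26 and 0.37. Kidney 1 was the highest WT PBS kidney in each of the 7 called members. Leaving it out therefore raises their fold changes, and the shares above are no test of the members. Leaving out any other single kidney gave no call, and the medians moved by over 1.5 times without WT PBS kidney 2 (class I 0.07) and without WT PBS kidney 4 (class II 0.14). Kidney 1 carries the same label as the rest of its group, and its summed macrophage (2966 CPM), B cell (23.5 CPM) and endothelial (907 CPM) levels lay within the range of the other WT PBS kidneys. Its summed T cell level was 82.9 CPM, against 39.9 to 44.0 CPM in the other 4. Its summed NK cell level of 21.9 CPM was the highest of the 19 kidneys, against 9.29 to 12.3 CPM in the other 4. Its proximal tubule (1340 CPM) and dendritic cell (698 CPM) levels were the lowest of the 5, the others being at 1542 to 2512 and 726 to 899.7 CPM. The part of these cells in the calls was not tested.

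The marker lists gave 0 calls in this comparison. Summed macrophage levels were 2614 to 3080.0 CPM with rCD5L, dendritic cell levels 787 to 906 CPM, and T cell levels 53.2 to 99.2 CPM against 39.9 to 82.9 CPM with PBS. The median log2 fold change was 0.04 over 12 macrophage markers, 0.17 over 10 dendritic cell markers and 0.41 over 9 T cell markers. Their part in the member values was not tested.

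**Figure D4:**
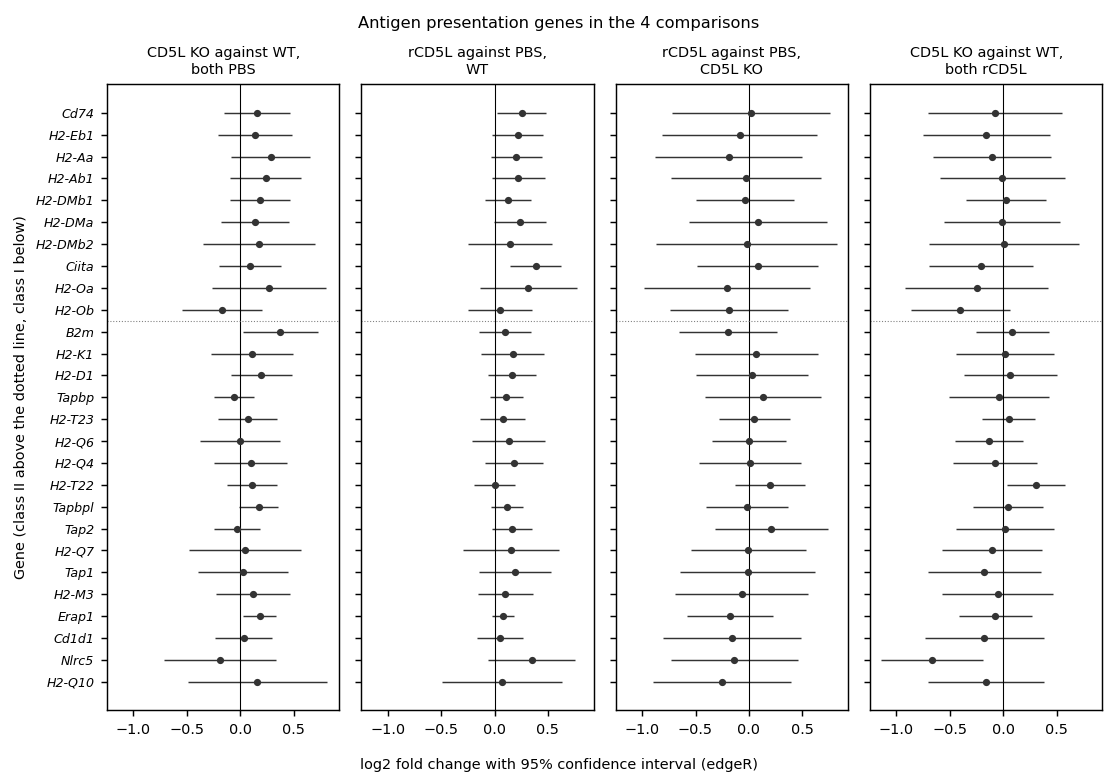
Log2 fold change of 27 members (points) with its 95% interval (bars, edgeR) in the 4 comparisons of 2 groups, each of which shares kidneys with 2 others. The values lie mostly above 0 in the first 2 panels, with class medians of 0.10 and 0.17 in the first and 0.13 and 0.22 in the second, and the intervals of the panels with CD5L KO rCD5L kidneys are wide (-0.72 to 0.76 for Cd74 in the third).

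The third comparison, rCD5L against PBS in CD5L KO mice, asks what the protein does where it is otherwise missing. No member was called, none of 31 had an unadjusted p under 0.05 (2.87% of all genes did), the smallest adjusted p was 0.897 (edgeR), and DESeq2 called 0 members with 0 at the unadjusted level (0.0573% and 3.92% of all genes). Over all 17467 genes 0% were called. The medians were -0.01 in class I and -0.04 in class II, with 11 fold changes above 0 and 20 below (53.5% of all genes above). The other tools, scalings and filters and the FPKM values put class I between -0.05 and 0.0019 and class II between -0.19 and 0.01, the lowest on FPKM with a pseudocount of 0.1 and the highest with the length offset.

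Cd74 was at 2819, 2268, 1936 and 2173 CPM in the CD5L KO PBS kidneys and at 2829, 2432, 3291, 795 and 2383 CPM in the CD5L KO rCD5L kidneys. Kidney 4 lay far below all PBS kidneys and kidneys 1 and 3 above them. The log2 fold change was 0.02 with a 95% interval of -0.72 to 0.76 (edgeR), which leaves room for sizeable changes in either direction.

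B2m was at 1229, 1216, 1177, 726 and 1297 CPM in the CD5L KO rCD5L kidneys, within or below the PBS range, a log2 fold change of -0.20 (SE 0.21). Over 19 alternative fits its log2 fold change ranged from -0.29 to -0.07. Ciita was at 54.2, 46.5, 41.7 and 45.0 CPM with PBS and at 58.3, 56.2, 60.5, 21.7 and 52.5 CPM with rCD5L. In Ciita 3 of the 5 rCD5L kidneys exceeded all PBS kidneys and kidney 4 lay under all of them, giving a log2 fold change of 0.08 (SE 0.26). H2-K1, H2-Aa and Nlrc5 gave 0.07, -0.19 and -0.14.

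Kidney 4, whose proximal tubule markers stood out, had a summed macrophage level of 904 CPM, the lowest of the 19 kidneys. Without it the medians were 0.12 in class I, with 15 of 20 above 0, and 0.14 in class II, with 10 of 11 above 0, and Ciita was at 0.28 (adjusted p = 0.763, edgeR). Without kidney 3 they were -0.09 and -0.16, without CD5L KO PBS kidney 1 they were 0.08 and 0.05, and without kidneys 3 and 4 together, an alternative chosen after seeing the data, 0.07 and 0.10. No member was called in any of these. Leaving out any other kidney put class I between -0.06 and 0.01 and class II between -0.14 and -0.05.

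CD5L KO against WT with both given rCD5L compares the genotypes when all mice receive the protein, and it shares its kidneys with the previous 2 comparisons. No member was called of 31 and 0% of 17360 genes were, while 4 members had an unadjusted p under 0.05 (17.8% of all genes) and DESeq2 called 0 with 4 at that level (0.864% and 19.3%). Of the fold changes 9 were above 0 and 22 below, against 48.9% of all genes above 0. Nlrc5 was at 18.5, 27.9, 20.8, 11.5 and 28.6 CPM in the CD5L KO rCD5L kidneys, of which 3 lay below all WT rCD5L kidneys (27.4 to 38.4 CPM). Its log2 fold change was -0.67 (SE 0.22, adjusted p = 0.259, edgeR), and -0.51 without kidney 4 (adjusted p = 0.186). The other 3 were H2-T22 (0.31), H2-T24 (-0.46) and H2-Q2 (-0.41), the last named, as below, after its values were seen.

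One member did not overlap between these groups, against 2.9% of genes that were lower without overlap. H2-Ob, the beta chain of the H2-O inhibitor and largely a B cell gene, was at 7.20, 6.75, 6.06, 2.91 and 6.30 CPM in CD5L KO and at 7.73, 7.70, 7.52, 8.03 and 7.23 CPM in WT kidneys, so that the gap was 7.20 against 7.23 CPM (log2 fold change -0.40, SE 0.21, adjusted p = 0.330, edgeR). The medians were -0.08 and -0.11, and 0.07 and 0.10 without kidney 4, -0.15 and -0.22 without kidney 3. Leaving out any other kidney put class I between -0.13 and -0.04 and class II between -0.18 and -0.08. FPKM values put class I between -0.14 and -0.09 and class II between -0.24 and -0.23, the length offset put class II at -0.19, and class I was at -0.04 without a filter. Without kidneys 3 and 4 together, class I was at 0.0011 and class II at 0.06, and B2m alone was called (0.24, adjusted p = 0.039, against 3.58% of all genes). With all 19 kidneys in 1 fit, H2-M5 alone was called (-1.68, adjusted p = 0.049, against 7% of all genes), a class I-like gene of 1 to 19 counts per kidney that is also named after its values were seen. The marker lists gave 0 calls. Their median log2 fold change was -0.40 over 8 B cell, -0.30 over 12 macrophage, -0.36 over 10 dendritic cell and -0.36 over 9 T cell markers. It was 1.45 over 8 proximal tubule markers. Their part in the values of H2-Ob, Nlrc5 and the class medians was not tested.

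The interaction asks whether the response to rCD5L differed between CD5L KO and WT mice. No member was called of 32 and 0% of 18454 genes were (edgeR), 1 member, H2-Q2 (-0.75), had an unadjusted p under 0.05 (6.25% of all genes), and DESeq2 called 0 members with 2 at that level (0% and 6.96%). Of the 32 estimates 29 were below 0, while 53% of all genes were above 0, with medians of -0.16 in class I and -0.23 in class II, and the smallest adjusted p was 0.731. Cd74 was at -0.21, H2-Aa at -0.37, Ciita at -0.28, H2-K1 at -0.08, B2m at -0.28 and Nlrc5 at -0.46. Without CD5L KO rCD5L kidney 4 the medians were -0.02 and -0.07, and without WT PBS kidney 1 they were -0.28 and -0.41. They were -0.07 and -0.15 without CD5L KO PBS kidney 1, -0.25 and -0.30 without CD5L KO PBS kidney 3, and -0.22 and -0.36 without CD5L KO rCD5L kidney 3. Without WT PBS kidney 5 class I was at -0.10, and without kidneys 3 and 4 of CD5L KO rCD5L together the medians were -0.08 and -0.11. FPKM values put class I between -0.27 and -0.17 and class II between -0.40 and -0.39. The median interaction estimate was -0.11 over macrophage, -0.30 over dendritic cell, -0.31 over B cell and -0.46 over T cell markers. It was 1.48 over proximal tubule markers. Their part in the member values was not tested.

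Among the other genes of the pathway, 3 of 47 tested were called in CD5L KO against WT with PBS, where 10.5% of all genes were. The other 4 comparisons called 0% of all genes and so 0 of these. Of 7 genes that process peptides for class II, 2 were higher in CD5L KO, and they act in opposite ways: Ctsl, a cathepsin that can cut the invariant chain, and Cst3, an inhibitor of cathepsins. Ctsl was at 1034, 1044, 1039, 1034 and 992 CPM in the WT PBS kidneys and at 1317, 1159, 1266 and 1106 CPM in the CD5L KO PBS kidneys, with no overlap (log2 fold change 0.23, adjusted p = 0.034, edgeR). Cst3 was at 788, 659, 674, 659 and 666 CPM in WT and at 925, 859, 761 and 816 CPM in KO kidneys, with WT kidney 1 inside the KO range (0.28, adjusted p = 0.034, edgeR). Each of the 2 stayed called in 2 of the 9 fits that left out a kidney, with adjusted p from 0.023 to 0.10 in Ctsl and from 0.016 to 0.10 in Cst3. Cst3 was at 0.15 with the length offset (adjusted p = 0.194, edgeR) and missed the threshold in the 3 FPKM fits (adjusted p = 0.078 to 0.20, limma), and Ctsl missed it in the FPKM fit without a filter (adjusted p = 0.086, limma). With all 19 kidneys in 1 fit, where 0.065% of all genes were called, neither was (adjusted p = 0.260 for Ctsl and 0.306 for Cst3, edgeR).

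Of 7 costimulation and T cell contact genes 1 was called, beside 10.5% of all genes, and it was lower in CD5L KO. Icosl, the ligand of the T cell receptor ICOS, was at 34.3, 33.0, 29.0, 32.2 and 31.6 CPM in WT PBS and at 24.1, 26.6, 21.9 and 27.2 CPM in CD5L KO PBS kidneys. The groups did not overlap, the log2 fold change was -0.37 (adjusted p = 0.014, edgeR), and it was called in all 9 fits that left out a kidney, with adjusted p of at most 0.043, but not with all 19 kidneys in 1 fit (-0.36, adjusted p = 0.499). None of 5 immunoproteasome genes (median 0.19), 5 class I chaperones (-0.08), 11 promoter factors (-0.04), 7 class I-like molecules outside the H2 names (0.02) or 5 genes of interferon gamma signalling (0.06) was called there. Ifng itself was too low to be tested.

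Within groups the levels of the coactivators varied with those of the genes they regulate. The deviations of log2 CPM from the group mean were compared over the 19 kidneys in 14 pairs of genes, with permutations within groups and Benjamini-Hochberg adjustment over the 14. Ciita followed Cd74 (Pearson r = 0.96, adjusted permutation p = 0.000373, Spearman rho = 0.83, adjusted permutation p = 0.00336), H2-Ab1 (r = 0.96, rho = 0.82), H2-Eb1 (r = 0.96, rho = 0.90) and H2-Aa (r = 0.94, rho = 0.90). Nlrc5 followed B2m (r = 0.88, rho = 0.76), Tap1 (r = 0.85, rho = 0.86), H2-K1 (r = 0.82, adjusted permutation p = 0.00689, rho = 0.87, adjusted permutation p = 0.000945) and H2-D1 (r = 0.70, rho = 0.67). The classes moved together as well, with r = 0.86 and rho = 0.85 between H2-K1 and H2-Aa (adjusted permutation p = 0.0026 and 0.00132).

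The same kidneys also varied in cell markers. Cd74 followed the dendritic cell gene Flt3 (r = 0.87, adjusted permutation p = 0.0362, rho = 0.58, adjusted permutation p = 0.0537), the macrophage gene Adgre1 (r = 0.77, adjusted permutation p = 0.0457, rho = 0.56, adjusted permutation p = 0.037) and the B cell gene Cd79a (r = 0.67, adjusted permutation p = 0.02, rho = 0.51, adjusted permutation p = 0.0474). H2-K1 gave r = 0.63 with Adgre1 (adjusted permutation p = 0.0611, rho = 0.56, adjusted permutation p = 0.037) and r = 0.01 with the endothelial gene Pecam1 (adjusted permutation p = 0.967, rho = 0.12, adjusted permutation p = 0.647). The part of cell makeup in the relations between members was not tested.

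The relations rested on a few kidneys. With the 2 kidneys farthest from the median left out, CD5L KO rCD5L kidney 4 and WT PBS kidney 1 (kidneys 3 and 4 of CD5L KO rCD5L for the Cd74 pairs), 12 of 14 adjusted p-values under 0.05 became 0 of 14. Over the other 17 kidneys Ciita gave r = 0.68 with Cd74 (adjusted permutation p = 0.0601), 0.70 with H2-Ab1, 0.71 with H2-Eb1 and 0.65 with H2-Aa. Nlrc5 gave 0.62 with B2m, 0.56 with Tap1, 0.44 with H2-K1 and 0.08 with H2-D1.

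**Figure D5:**
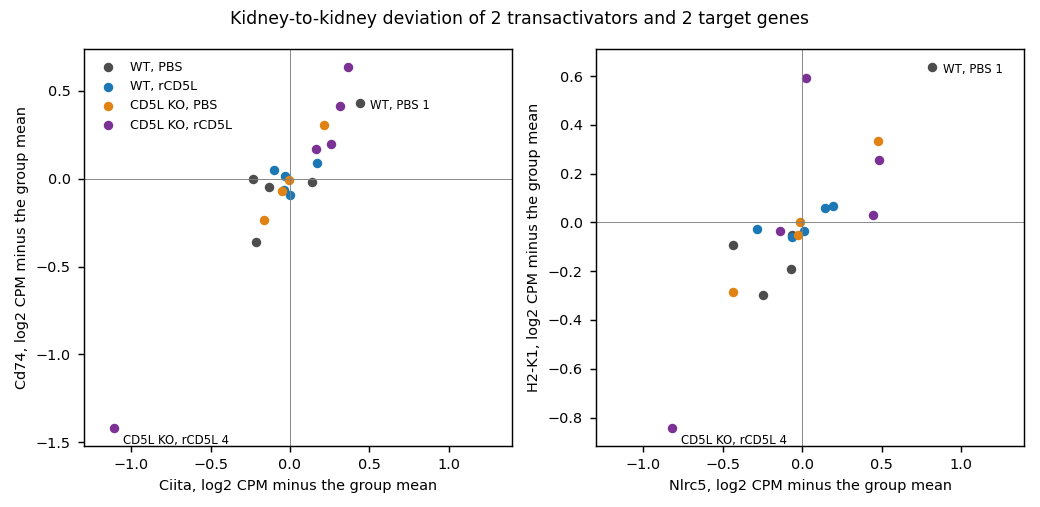
Deviation of log2 CPM from the group mean in each of the 19 kidneys for Ciita with Cd74 (left) and for Nlrc5 with H2-K1 (right), coloured by group. The points rise together (r = 0.96 on the left and 0.82 on the right), with CD5L KO rCD5L kidney 4 at the low end and WT PBS kidney 1 farthest to the right in both panels.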

How the data were processed

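The 19 libraries are bulk RNA-seq of whole obstructed kidneys. Group and replicate number came from the sample labels, and columns were matched by name. The authors deposited unnormalized counts per gene. Their processing notes name Trimmomatic for trimming, HISAT2 for alignment (GRCm38) and featureCounts for counting. Versions, the strand setting and the handling of reads with several matches are not given in the sources used here. FPKM values, also deposited by the authors, served to compare levels between genes.

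The count test was edgeR's quasi-likelihood test (edgeR 4.0.16 in R 4.3.3), with TMM scaling and the filterByExpr filter at a minimum count of 10. It was fitted across all genes, with Benjamini-Hochberg adjustment and a threshold of 0.05. Each fit held the groups of its comparison, and the interaction held all 4. CPM values used TMM-scaled library sizes summed over the genes that passed this filter, and log2 CPM a prior count of 2. Relations were tested by 100000 two-sided permutations within groups. Members with an adjusted p under 0.05 in any comparison and the tested members of a list of 27 were named, and others as said in the text. The members and lists were chosen with earlier results of these data known.

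Alternatives were another count tool (DESeq2 1.42.0), RLE scaling, a laxer filter (none) and a stricter one (10 counts in each kidney), an offset for gene length, limma 3.58.1 on log2 FPKM (pseudocount 1 or 0.1), 1 fit of all 19 kidneys, a block for the replicate number, and each kidney left out in turn. The count test was also run on simulated data, and the outcome is not reported here. Depth was 17917491 to 23847090 counts per kidney. A count of 0 allows up to 3 counts, for counting error only. In the 36 within-group pairs, chi-square divided by its degrees of freedom was 7.07 to 351, far above sampling noise. Promoter windows came from RefSeq (GRCm38.p6).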

Additional observations from a re-analysis of the deposited data

Results flagged for a closer look

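In 20 of 108 combinations of 27 members and 4 groups, 1 kidney lay apart from the rest of its group by Dixon's criterion (the gap to the nearest kidney over the range of the group), which chance alone gives in about 1 of 20 groups. Members tended to vary together, so flags in the same kidney are not separate draws. Of the 20, 12 were high values of WT PBS kidney 1, mostly in class I. They were H2-K1 (1707 CPM, group median 1029), H2-D1 (1227 CPM, median 821), B2m (1397 CPM, median 901), Tap1 (113 CPM, median 60.5), Tap2 (78.4 CPM, median 58.7), Tapbpl (45.8 CPM, median 36.6), Nlrc5 (44.8 CPM, median 24.2), H2-Q4 (139 CPM, median 84.0), H2-Q6 (149.8 CPM, median 87.5), H2-Q7 (102 CPM, median 49.4), H2-T23 (233 CPM, median 158) and the class II loading chain H2-DMb2 (62.2 CPM, median 30.2).

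Another 6 were low values of CD5L KO rCD5L kidney 4, mostly in class II: H2-Aa (473 CPM, group median 1359), H2-Eb1 (402 CPM, median 1301), Ciita (21.7 CPM, median 56.2), H2-DMb1 (56.0 CPM, median 108), H2-Ob (2.91 CPM, median 6.30) and, in class I, B2m (726 CPM, median 1216). The last 2 were H2-T23 in CD5L KO rCD5L kidney 3 (245 CPM, median 186) and H2-Q10, a secreted class I molecule of the liver, in WT PBS kidney 4 (2.79 CPM, median 1.52).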

How the results depend on the processing

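Groups of 4 or 5 kidneys with 1 kidney far from the rest set the precision, and low members (H2-Eb2, H2-Q10, H2-M5) had few counts. The labels do not say that same-numbered kidneys of 2 groups are paired. Their deviations correlated at -0.05 to 0.16 (CD5L KO against WT, PBS), 0.02 to 0.21 (rCD5L in CD5L KO), -0.05 to -0.01 (rCD5L in WT) and -0.19 to 0.01 (CD5L KO against WT, rCD5L). A kidney correlated best with its own number in 2 of 4, 2 of 4, 0 of 5 and 0 of 5. Whether the numbers reflect a shared order of surgery or processing was not tested.

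Calls in CD5L KO against WT with PBS went from 0 members to 2 with the replicate number as a block (B2m, log2 fold change 0.36, adjusted p = 0.019, and Erap1, 0.18, adjusted p = 0.048, edgeR), when it called 12.1% of all genes, and ranged from 0 to 4 with kidneys left out. In rCD5L in WT they were 1 with DESeq2 and 0 to 7 with kidneys left out, and in CD5L KO against WT with rCD5L 1 with all 19 kidneys in 1 fit and 1 without CD5L KO rCD5L kidneys 3 and 4. Relations with an adjusted p under 0.05 went from 12 to 0. Over all genes, rCD5L in WT went from 0 to 542 with DESeq2 and 137 without a filter, CD5L KO against WT with PBS from 1850 to 12 with all kidneys in 1 fit, and CD5L KO against WT with rCD5L from 0 to 1291 in that fit and 150 with DESeq2. The cause was not tested.

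Single log2 fold changes near 0 changed sign. For CD5L KO against WT with PBS, H2-Q6 was at 0.0014 without a filter, 0.012 with the block, 0.024, 0.026 and 0.024 on FPKM (pseudocount 1, 0.1, and 1 without a filter) and 0.0032 in 1 fit, and Cd1d1 at -0.0077 with the block and -0.011 with the length offset. For rCD5L in CD5L KO, Cd74 was at -0.14 with the block and -0.11 in each FPKM fit, and with the block Ciita was at -0.034 and H2-K1 at -0.055. H2-T22 in rCD5L in WT was at -0.0042 with DESeq2, -0.0045 with RLE factors, -0.0081 without a filter, -0.0042 with at least 10 counts and -0.0070 in 1 fit. For CD5L KO against WT with rCD5L, H2-K1 was at -0.048 with the block, -0.032 with the length offset and -0.070, -0.071 and -0.070 on FPKM, and B2m at -0.060 with the length offset. The cause was not tested. The block changed no other call. It put the class I and class II medians at -0.11 and -0.26 for rCD5L in CD5L KO (0 of 11 class II above 0) and at -0.13 and -0.20 for CD5L KO against WT with rCD5L.

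With kidneys left out, single log2 fold changes were followed for 28 members in CD5L KO against WT with PBS, 30 for rCD5L in WT, 6 for rCD5L in CD5L KO, 10 for CD5L KO against WT with rCD5L and 7 for the interaction, and those that crossed 0 ranged as follows. In CD5L KO against WT with PBS the ranges were -0.010 to 0.31 for H2-K1, -0.089 to 0.26 for Tap1, -0.072 to 0.070 for Tap2, -0.37 to 0.081 for Nlrc5, -0.090 to 0.21 for H2-Q6, -0.10 to 0.36 for H2-Q7, -0.061 to 0.40 for H2-Q10, -0.027 to 0.20 for H2-T23, -0.0085 to 0.25 for H2-M3, -0.016 to 0.12 for Cd1d1 and -0.00093 to 0.44 for H2-DMb2. For rCD5L in CD5L KO they were -0.13 to 0.25 for Cd74, -0.31 to 0.020 for H2-Aa, -0.086 to 0.24 for H2-K1 and -0.27 to 0.047 for Nlrc5. For rCD5L in WT they were -0.052 to 0.31 for H2-Q10, -0.042 to 0.10 for H2-T22 and -0.063 to 0.13 for H2-Ob. For CD5L KO against WT with rCD5L they were -0.22 to 0.15 for Cd74, -0.18 to 0.10 for H2-Aa and -0.14 to 0.18 for H2-K1, and for the interaction -0.27 to 0.068 for H2-K1. Over all tested members, 144 of 1803 values with a kidney left out changed sign, as did 87 of 1542 under the other alternatives. In rCD5L in CD5L KO 22 of 31 members changed sign with some kidney left out, and in CD5L KO against WT with rCD5L 20 of 31.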

Other observations

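The table held 11 further H2 rows that are not protein coding, outside the group by its rule. The pseudogene H2-K2 had a median of 275 counts (67 to 449 over the 19 kidneys), and the rows H2-Q5 (117 to 496 counts, median 273), H2-T10 (24 to 162, median 118) and H2-T-ps (16 to 108, median 48) were also counted in every kidney. H2-Ea-ps, H2-Pa, H2-Pb and H2-M10.5-ps1 had 0 counts in every kidney.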
